A study of Homo sapiens with 12 samples.

Results

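The numbered ZNF genes are human genes named ZNF with a number, with at most 1 letter from A to D after it. Of 512 such symbols in the count table, 298 reached a mean of 15 CPM (the normalised read count, scaled to a common library total and not divided by transcript length) in at least 1 of 4 groups, and these 298 are described here. The other 214 lay below that level, and 29 of the 512 had no count in any library. All 298 passed the low-count filter and were among the 15218 genes tested. The members were chosen by their measured group mean levels, so levels below are descriptions without a test. The members closest above the threshold were ZNF572, ZNF225 and ZNF44, whose highest group means were 15.13, 15.19 and 15.2 CPM. The genes closest below it were ZNF469, ZNF805 and ZNF865, at 14.68, 14.79 and 14.996 CPM.

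Poly-A RNA was sequenced as stranded libraries in 12 samples of 2 lines of B-cell precursor leukaemia, 697 and KOPN-8, to ask how expression differs where the histone H3K36 methyltransferase gene SETD2 was edited. The 697 edited group is clone BM_B and the KOPN-8 edited group is clone BA, both labelled SETD2 heterozygous KO. Each is set against the sgRNA empty vector control of its own line, labelled SETD2 WT, with 3 libraries per group labelled as biological replicates. Each edited group is 1 clone, whether the controls are clones is not stated, and no parental library was used here, so the edit and other differences between clone and control cannot be told apart, and p-values measure the spread between libraries, which may be technical. Library totals ran from 10378769 to 18278662 counts, so a gene without a count in a library could still lie at up to 0.164 to 0.289 CPM there (3 counts, counting error only). SETD2 itself averaged 219 CPM in 697 edited and 161 CPM in 697 control libraries (log2 fold change 0.44, adjusted p = 0.000103, edgeR quasi-likelihood test, Benjamini-Hochberg) and 158 CPM in KOPN-8 edited and 169 CPM in KOPN-8 control libraries (log2 fold change -0.10, adjusted p = 0.309). RNA levels do not show the edited sequence. All 7 B-lineage markers examined reached 1 CPM in every group. The 4 erythroid markers together stayed at or below 0.0654 CPM in every library. The 5 myeloid markers together had 2.72 to 3.44 CPM in KOPN-8 edited and 0.380 to 1.05 CPM in KOPN-8 control libraries, most of it LYZ in the edited ones (log2 fold change 2.48, adjusted p = 2.88e-05, edgeR), and 0.883 to 1.76 CPM in 697 edited and 1.70 to 2.18 CPM in 697 control libraries. The 5 T-lineage markers together had 11.98 to 15.4 CPM in KOPN-8 edited and 24.4 to 28.3 CPM in KOPN-8 control libraries, nearly all of it CD7, and at most 0.0753 CPM in 697. Their part in the results below was not tested, and in bulk RNA fewer cells of a type and less RNA per cell cannot be told apart.

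C2H2 zinc finger proteins read DNA through tandem fingers, each held together by a zinc ion. Many also carry a KRAB domain, which recruits TRIM28 (KAP1) and, through it, the H3K9 methyltransferase SETDB1 and HP1 proteins to silence transposable elements and other targets. Their genes arose largely by local duplication and lie in clusters on chromosome 19, where the gene bodies themselves carry H3K9 and H3K36 trimethylation. The label was checked against translated coding sequences from GENCODE v29. At least 1 C2H2 finger was found in 293 of the 298 members, with a median of 10.5 fingers per protein and a maximum of 31, in ZNF142 and ZNF91. A KRAB-A domain was found in 195 members, whose median was 12 fingers, against 7 in the 103 members without one. Chromosome 19 held 144 members, of which 128 had KRAB. Chromosome 7 held 20, chromosome 16 held 17 and chromosome 1 held 15.

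Promoter sequence was not used in the choice of members. RefSeq promoters (GRCh38.p14, 250 bases before to 50 after the start) were matched for 262 of the 298 members. CCGGAAG, the core of many ETS family binding sites, was searched on both strands. It was present in 44.3% of the members' promoters, against 22.1% of 7899 promoters of genes that reached 15 CPM in a group and 10.7% of all 27305 promoters of the table. It occurred in 49.7% of KRAB and 33.7% of other members. The promoters below belong to 3 members higher in edited KOPN-8 cells and to ZNF677, which was on in 697 and had no count in KOPN-8, and were picked because they hold the match. No match was found for ZNF32, ZNF771, ZNF513 and ZNF367, also among the largest rises in KOPN-8, or for ZNF135, ZNF532, ZNF577 and ZNF711, also on in 697 alone. Capitals mark CCGGAAG or its reverse complement CTTCCGG.
ZNF257, chr19:22052234-22052533, plus strand: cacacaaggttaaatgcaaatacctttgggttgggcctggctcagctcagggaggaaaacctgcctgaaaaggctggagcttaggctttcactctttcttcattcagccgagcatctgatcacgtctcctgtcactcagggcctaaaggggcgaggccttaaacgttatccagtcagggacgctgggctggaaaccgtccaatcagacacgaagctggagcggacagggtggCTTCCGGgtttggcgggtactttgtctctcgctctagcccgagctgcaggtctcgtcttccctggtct
ZNF264, chr19:57191250-57191549, plus strand: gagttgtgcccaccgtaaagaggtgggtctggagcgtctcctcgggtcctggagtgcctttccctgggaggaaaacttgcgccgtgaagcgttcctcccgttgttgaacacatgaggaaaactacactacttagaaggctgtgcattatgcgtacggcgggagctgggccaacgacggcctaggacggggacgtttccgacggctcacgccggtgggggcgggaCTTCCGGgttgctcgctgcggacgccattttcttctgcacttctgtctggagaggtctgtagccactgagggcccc
ZNF606, chr19:58002771-58003070, minus strand: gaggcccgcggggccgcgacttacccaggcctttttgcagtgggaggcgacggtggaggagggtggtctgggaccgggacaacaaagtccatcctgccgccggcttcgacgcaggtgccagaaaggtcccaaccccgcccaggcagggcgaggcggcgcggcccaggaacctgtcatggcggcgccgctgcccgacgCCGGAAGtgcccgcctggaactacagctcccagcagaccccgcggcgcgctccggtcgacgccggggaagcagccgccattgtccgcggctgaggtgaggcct
ZNF677, chr19:53254774-53255073, minus strand: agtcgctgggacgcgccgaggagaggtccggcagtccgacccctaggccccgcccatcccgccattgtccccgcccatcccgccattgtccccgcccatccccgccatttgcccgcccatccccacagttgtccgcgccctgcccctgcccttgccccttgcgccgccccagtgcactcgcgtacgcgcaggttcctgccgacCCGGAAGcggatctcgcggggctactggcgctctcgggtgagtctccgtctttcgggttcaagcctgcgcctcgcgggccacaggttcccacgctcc

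Each of these windows held 1 match. CCAAT was present in 47.3% of the members' promoters, against 37.5% of the promoters of genes at 15 CPM and 35.7% of all promoters. TATAAA was present in 4.20%, against 4.95% and 11.95%. Both were searched on both strands. Neither can overlap CCGGAAG, they can share 1 base with each other, and a match is a stretch of letters, not a bound site.

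Most members were on everywhere. In all 4 groups 217 members reached 15 CPM, 16 did so in 3 groups, 51 in 2 and 14 in 1. The highest group mean of a member had a median of 38.0 CPM and a maximum of 356 CPM. Summed over the members, the level was 14089 ± 427 CPM in 697 edited and 13288 ± 325 CPM in 697 control libraries, and 11944 ± 309 CPM in KOPN-8 edited and 11375 ± 157 CPM in KOPN-8 control libraries (SD, n = 3 each). The 697 edited libraries, at 13837 to 14581 CPM, lay above the 697 control libraries, at 12914 to 13496 CPM. The KOPN-8 edited libraries, at 11740 to 12299 CPM, lay above the KOPN-8 control libraries, at 11194 to 11466 CPM. The members held 1.14% to 1.44% of a library's counts.

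No member was on, at a mean of 15 CPM or more, in one group of a line and off, at a mean under 0.5 CPM, in its partner: 0 of 298 in 697 and 0 of 298 in KOPN-8. These are descriptions of means, with no test and no other tool. Among all 9596 genes tested that reached 15 CPM in a group, 10 (0.104%) in 697 and 5 (0.0521%) in KOPN-8 met the same description. Among members that were on in one group of a line, the most unequal was ZNF318 in 697, where the lower mean was 59.2% of the higher, followed by ZNF706 in KOPN-8 at 59.8% and ZNF771 in 697 at 61.6%. With on lowered to 5 CPM, 1 numbered ZNF gene qualified, ZNF391 in KOPN-8, which is not a member. Its KOPN-8 edited libraries had 0.0530, 0 and 0 CPM and its KOPN-8 control libraries 5.19, 4.83 and 5.33 CPM. In 697 it averaged 2.20 CPM in edited and 4.68 CPM in control libraries.

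On and off patterns appeared between the lines instead. This search was added after the data had been seen, and since the lines differ in origin it says nothing of the edit. It found 14 members with a mean of 15 CPM or more in both groups of one line and under 0.5 CPM in both groups of the other. On in KOPN-8 and off in 697 were 4 members (1.34%), against 2.14% of all genes at 15 CPM. On in 697 and off in KOPN-8 were 10 (3.36%), against 2.8%. Both shares lay near those of all genes.

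The 4 members on in KOPN-8 were ZNF521, ZNF518A, ZNF594 and ZNF512B. ZNF521, a progenitor factor that binds and restrains the B-cell regulator EBF1, had 118, 119 and 123 CPM in KOPN-8 edited and 114, 110 and 111 CPM in KOPN-8 control libraries. In 697 it had 0 counts in 5 libraries and 1 count in the other. ZNF518A averaged 48.2 CPM in KOPN-8 edited and 50.03 CPM in KOPN-8 control libraries, against 0.475 CPM in 697 edited and 0.391 CPM in 697 control libraries. These 697 means lie just under the limit of 0.5 CPM, with 2 to 11 counts in a library. ZNF594 averaged 31.4 and 22.1 CPM in KOPN-8 edited and control libraries, with 1 count in the 6 libraries of 697. ZNF512B averaged 23.3 CPM in KOPN-8 edited and 31.5 CPM in KOPN-8 control libraries, with at most 5 counts in a 697 library.

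The 10 members on in 697 alone included 5 KRAB genes of chromosome 19, ZNF135, ZNF577, ZNF649, ZNF677 and ZNF841, and also ZNF532, ZNF618, ZNF704, ZNF711 and ZNF827. ZNF704 had 303, 330 and 341 CPM in 697 edited and 317, 308 and 336 CPM in 697 control libraries, and at most 2 counts in any KOPN-8 library. ZNF618, which binds the protein UHRF2, had 124, 118 and 115 CPM in 697 edited and 108, 106 and 112 CPM in 697 control libraries, and 0 counts in all 6 KOPN-8 libraries. ZNF711, an X-linked factor that works with the demethylase PHF8, had 77.8, 77.8 and 99.6 CPM in 697 edited and 81.3, 70.6 and 88.1 CPM in 697 control libraries, and likewise 0 counts in KOPN-8. In each of these genes the 2 lines were fully apart while the edited and control libraries of 697 differed little: none of the 3 was called in 697. ZNF827, which recruits the NuRD complex to telomeres, averaged 63.6 CPM in 697 edited and 62.8 CPM in 697 control libraries. ZNF532, a member of the ZMYND8 complex together with ZNF592 and ZNF687, averaged 23.1 CPM in both 697 groups and had no count in KOPN-8.

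**Figure D1:**
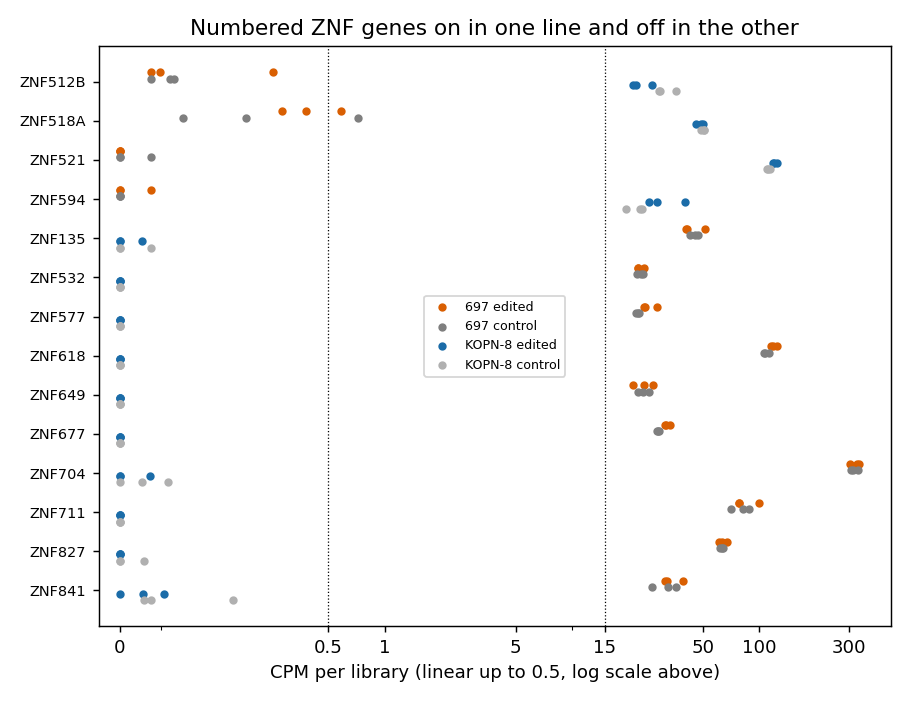
CPM of each library, one row per gene, for the 14 members on in one line and off in the other, with 1 point per library and the dotted lines at 0.5 and 15 CPM. The axis is linear up to 0.5 CPM and logarithmic above. In every row all libraries of the line where the gene was on lie above those of the other line. For ZNF518A the 697 libraries lie on both sides of 0.5 CPM.

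Of the numbered ZNF genes next to these members, some were well above 0 in both lines and some were near 0 in a line. ZNF831, next to ZNF512B, averaged 0.131 and 0.275 CPM in 697 edited and control libraries. In KOPN-8 edited and control libraries it averaged 9.87 and 2.60 CPM. ZNF503, next to ZNF518A, averaged 3.38 and 3.90 CPM in 697 edited and control libraries and 0 CPM in both KOPN-8 groups. ZNF577 and ZNF649 are next to each other in the order of numbered ZNF genes on chromosome 19, and both had 0 counts in KOPN-8. The neighbour beyond ZNF649, ZNF613, had 7.08 CPM in KOPN-8 edited and 6.02 CPM in KOPN-8 control libraries. ZNF677 lies between ZNF665, at 10.8 CPM in KOPN-8 edited and 11.7 CPM in KOPN-8 control libraries, and ZNF845, at 30.2 CPM in KOPN-8 edited and 29.98 CPM in KOPN-8 control libraries. Some members fell just short of the description. ZNF154 had 15.2, 13.6 and 14.5 CPM in 697 edited and 17.1, 16.5 and 18.98 CPM in 697 control libraries, and at most 0.217 CPM in a KOPN-8 library. ZNF274 is a KRAB protein that brings SETDB1 to the 3' ends of other zinc finger genes. It had 0 counts in all 6 libraries of 697, with 14.4, 16.03 and 17.7 CPM in KOPN-8 edited and 11.2, 12.8 and 14.1 CPM in KOPN-8 control libraries. ZNF141 had 61.3 CPM or more in both KOPN-8 groups, and 0.754 CPM in 697 edited and 0.924 CPM in 697 control libraries.

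In 697, 24 of the 298 members were called between edited and control libraries at an adjusted p under 0.05 (edgeR quasi-likelihood test over all genes, Benjamini-Hochberg), against 9.45% of all genes tested and 10.8% of those at 15 CPM in a group. Of these, 19 members (6.38%) were higher, against 4.85% of all genes, and 5 (1.68%) were lower, against 4.6%. Among genes at 15 CPM in a group the shares were 5.65% and 5.2%. The median log2 fold change was 0.07 over the members and 0.00 over all genes tested. The 3 edited libraries all lay above the 3 control libraries in 56 members (18.8%), against 12.5% of all genes, and below them in 15 (5.03%), against 11.6%. Among genes at 15 CPM the shares were 14.1% above and 11.8% below. Same-numbered libraries of 697 deviated together, and with the replicate number as a block 37 members were higher and 9 lower, against 7.6% and 7.64% of all genes. The count of 24 fell to 12 without 697 edited replicate 3, and to 12 without 697 control replicate 2. None of the calls reached a 2-fold change, and 15 of the 19 higher ones were under 0.5 on the log2 scale.

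**Figure D2:**
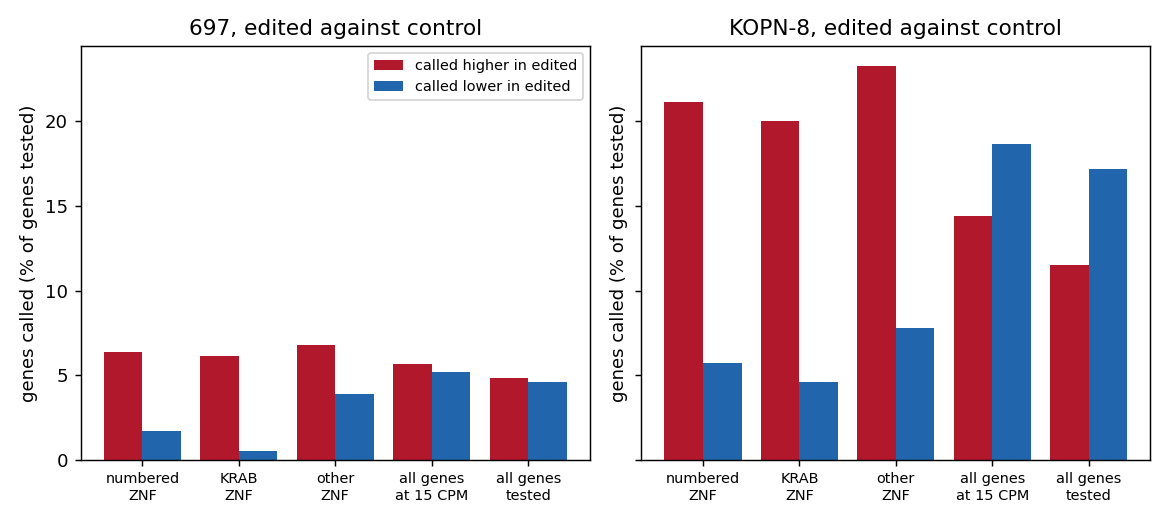
Percentage of genes called higher (red) or lower (blue) in edited than in control libraries, in 697 (left) and KOPN-8 (right), for the 298 numbered ZNF genes, the 195 with KRAB, the 103 without, genes at 15 CPM in a group and all genes tested. In KOPN-8, 21.1% of members were higher and 5.70% lower, against 11.5% and 17.2% of all genes tested. Genes at 15 CPM outside chromosomes 8 and 13, not drawn, had 14.85% higher and 16.12% lower there.

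The largest rise in 697 was that of ZNF318, whose mouse counterpart lets B cells make IgD by preventing transcripts from ending after the IgM exons. Its level was 296, 410 and 360 CPM in the edited 697 libraries and 198, 238 and 196 CPM in 697 control libraries. Every edited library was above every control library, and the log2 fold change was 0.76 ± 0.11 (SE; adjusted p = 0.00015, edgeR). Its exons overlap those of CRIP3 on the same strand. ZNF608, whose mouse counterpart represses the recombinase genes Rag1 and Rag2 in thymocytes, had 278, 348 and 340 CPM in 697 edited and 209, 241 and 205 CPM in 697 control libraries. Again the groups did not overlap, with a log2 fold change of 0.56 ± 0.08 (adjusted p = 3.65e-05, edgeR). ZNF217, an oncogene product found with the CoREST repressor, had 88.2, 103 and 87.1 CPM in 697 edited and 64.5, 69.7 and 67.7 CPM in 697 control libraries, a log2 fold change of 0.46 ± 0.08 (adjusted p = 0.00033, edgeR).

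Of the other members that rose in 697 without overlap between groups, 5 stood among the 8 with the largest rise. They were the KRAB genes ZNF443, ZNF641, ZNF780B, ZNF615 and ZNF569, with log2 fold changes of 0.65, 0.58, 0.49, 0.47 and 0.45. ZNF443 averaged 5.52 CPM in 697 edited and 3.48 CPM in 697 control libraries, and 22.3% of its coding sequence is nearly identical to another gene, so that its reads may be split. ZNF615 had 18.2, 20.2 and 20.6 CPM in 697 edited and 13.9, 14.0 and 14.8 CPM in 697 control libraries. The call of ZNF780B (adjusted p = 0.0484, edgeR) was lost in 11 of the alternative settings, that of ZNF443 in 5 and that of ZNF641 in 4, for all of these including the fit of 697 alone.

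The 5 members lower in edited 697 cells were ZNF771, ZNF276, ZNF580, ZNF672 and ZNF746, of which ZNF746 has KRAB. ZNF276 had 46.4, 43.8 and 47.4 CPM in 697 edited and 69.8, 69.0 and 68.8 CPM in 697 control libraries. The groups were far apart, with a log2 fold change of -0.59 ± 0.10 (adjusted p = 0.000163, edgeR). Its exons overlap those of FANCA and VPS9D1 on the other strand, and whether the counting used strand is not given in the sources used here. ZNF672 averaged 51.8 CPM in 697 edited and 71.0 CPM in 697 control libraries (log2 fold change -0.45, adjusted p = 0.00408, edgeR). ZNF746, also called PARIS, a repressor of the PGC-1alpha gene, averaged 24.9 CPM in 697 edited and 31.1 CPM in 697 control libraries (log2 fold change -0.32, adjusted p = 0.0252, edgeR). This call was lost in 5 of the alternative settings, including the fit of 697 alone.

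**Figure D3:**
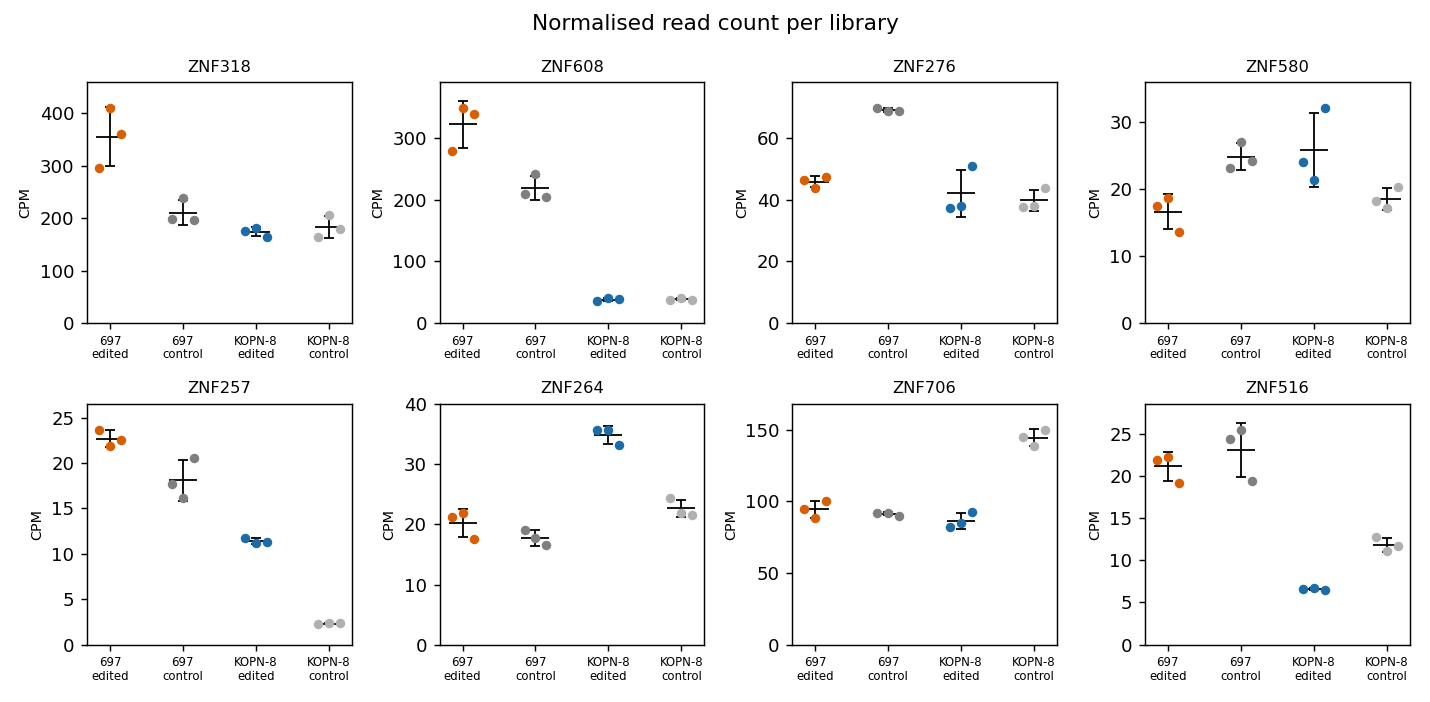
CPM per library (points) with mean and SD (bars, n = 3) in 697 edited, 697 control, KOPN-8 edited and KOPN-8 control libraries for 8 members. ZNF318, ZNF608 and ZNF276 were apart in 697 only, ZNF257, ZNF264, ZNF706 and ZNF516 were apart in KOPN-8, and ZNF580 moved opposite ways in the 2 lines.

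In KOPN-8, 80 of the 298 members (26.8%) were called, against 28.7% of all genes tested and 33.1% of those at 15 CPM in a group. The directions were unequal: 63 members (21.1%) were higher in edited cells, against 11.5% of all genes, and 17 (5.70%) were lower, against 17.2%. Among genes at 15 CPM in a group, 14.4% were higher and 18.7% lower. Outside chromosomes 8 and 13, 14.85% of genes at that level were higher and 16.12% lower. The 3 edited libraries all lay above the control libraries in 102 members (34.2%), against 20.4% of all genes, and below them in 34 (11.4%), against 24.7%; among genes at 15 CPM the shares were 25% above and 26.4% below. The median log2 fold change was 0.08 over the members and 0.00 over all genes. Of the 63 rises 55 were under 0.5 on the log2 scale, and their median was 0.35. Without KOPN-8 control replicate 1 the counts were 39 higher and 16 lower. Over the 217 members that reached 15 CPM in all 4 groups, 49 (22.6%) were higher and 8 (3.69%) lower.

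ZNF257, a KRAB protein with 11 fingers, changed most. Its level was 11.8, 11.2 and 11.3 CPM with the edit and 2.23, 2.33 and 2.34 CPM in KOPN-8 control libraries. The groups were well apart, with a log2 fold change of 2.31 ± 0.15 (SE; adjusted p = 1.01e-11, edgeR). In 697 it averaged 22.7 CPM in edited and 18.1 CPM in control libraries (log2 fold change 0.33, adjusted p = 0.0581, edgeR). Its neighbour on one side, ZNF208, had no count in KOPN-8, while ZNF43, next beyond, averaged 104 CPM in KOPN-8 edited and 83.5 CPM in KOPN-8 control libraries.

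ZNF264, a KRAB protein with 13 fingers, had 35.7, 35.7 and 33.2 CPM in KOPN-8 edited and 24.3, 22.0 and 21.6 CPM in KOPN-8 control libraries. No libraries overlapped, and the log2 fold change was 0.62 ± 0.10 (adjusted p = 1.69e-05, edgeR). ZNF606, also with KRAB and 13 fingers, had 10.1, 9.12 and 11.03 CPM in KOPN-8 edited and 5.86, 6.52 and 6.52 CPM in KOPN-8 control libraries, a log2 fold change of 0.68 ± 0.12 (adjusted p = 8.27e-05, edgeR). ZNF32, which has no KRAB, averaged 4.90 CPM in KOPN-8 edited and 2.81 CPM in KOPN-8 control libraries, a log2 fold change of 0.81 ± 0.16 (adjusted p = 0.000423, edgeR). Exons of ZNF32-AS1 and ZNF32-AS2 lie opposite its own. ZNF771, ZNF513, ZNF367 and ZNF594 completed the 8 largest rises, with log2 fold changes of 0.63, 0.57, 0.50 and 0.50. ZNF367 had 80.8, 83.9 and 75.4 CPM in KOPN-8 edited and 55.7, 58.7 and 54.9 CPM in KOPN-8 control libraries.

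Among the 17 members lower in edited KOPN-8 cells, ZNF286A fell most. It had 2.60, 1.84 and 2.55 CPM in KOPN-8 edited and 4.45, 5.999 and 7.23 CPM in KOPN-8 control libraries (log2 fold change -1.33 ± 0.20, adjusted p = 9.18e-06, edgeR). It is uncertain, since 87.1% of its coding sequence is nearly identical to ZNF286B and reads may be split between them. ZNF516, which activates the brown fat gene Ucp1 in mouse, had 6.62, 6.69 and 6.43 CPM in KOPN-8 edited and 12.8, 11.1 and 11.7 CPM in KOPN-8 control libraries. The groups did not overlap, with a log2 fold change of -0.84 ± 0.13 (adjusted p = 1.73e-05, edgeR). The KRAB genes ZNF74, ZNF589 and ZNF234 had log2 fold changes of -0.59, -0.55 and -0.47, and ZNF512B had -0.44. ZNF589 averaged 10.2 CPM in KOPN-8 edited and 14.9 CPM in KOPN-8 control libraries.

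Among the members lower in KOPN-8, 3 lie on chromosome 8. ZNF706 had 81.9, 84.6 and 92.4 CPM in KOPN-8 edited and 145, 138 and 150 CPM in KOPN-8 control libraries, a log2 fold change of -0.74 ± 0.07 (adjusted p = 6.71e-09, edgeR). ZNF572 had -0.67 ± 0.12 (adjusted p = 7.94e-05, edgeR) and ZNF395 had -0.37 ± 0.13 (adjusted p = 0.0465, edgeR). The call of ZNF395 was lost in 9 of the alternative settings, RLE and upper-quartile scaling among them. They lie before ASAP1 in gene order, where 241 of 276 genes at 15 CPM (87.3%) were lower in edited KOPN-8 cells, with a median log2 fold change of -0.59. ASAP1 was taken as the boundary from earlier results of these same data, so this share is a description and no test. The fourth member there, ZNF704, was off in KOPN-8. Past ASAP1, ZNF696 and ZNF7 were higher, with log2 fold changes of 0.36 and 0.27, and ZNF623, ZNF251 and ZNF250 were not called, at 0.12, 0.01 and -0.10. Of the 58 genes at 15 CPM past ASAP1, 25.9% were higher and 12.1% lower in edited KOPN-8 cells. Copy number was not measured. In 697 none of the 9 members of chromosome 8 was called at an adjusted or an unadjusted p under 0.05 by edgeR, and DESeq2 called 0. The other 14 of the 17 members lower in edited KOPN-8 cells lie outside chromosome 8. Those 17 were 5.7% of the members, against 18.7% of genes at 15 CPM in a group. Outside chromosomes 8 and 13, 16.12% of genes at that level were lower. No member lies on chromosome 13.

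**Figure D4:**
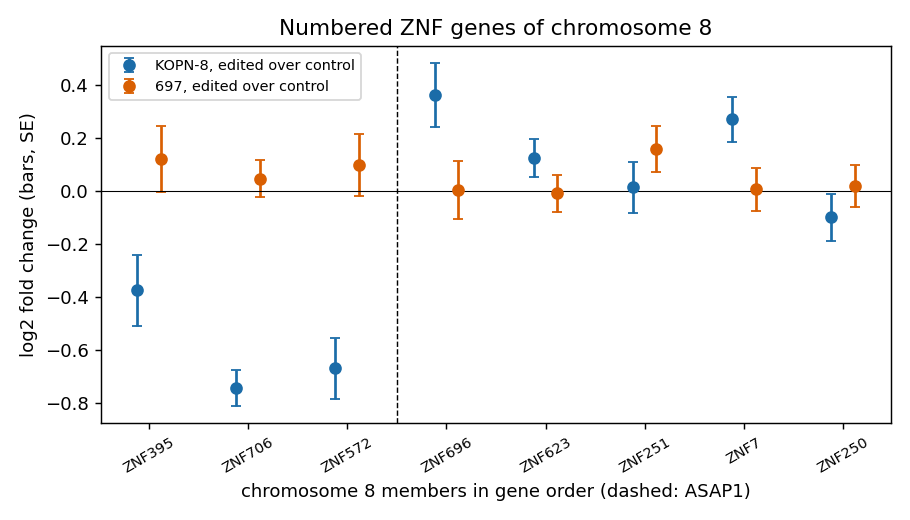
Log2 fold change, edited over control, with its SE, in KOPN-8 (blue) and 697 (orange) for the chromosome 8 members in gene order, without ZNF704, which was off in KOPN-8. The 3 members left of the dashed line were lower in edited KOPN-8 cells, at -0.37, -0.74 and -0.67, and the 697 values lay near 0.

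The members were also divided by KRAB, chromosome and number of fingers. Over all genes tested, 11.5% were higher and 17.2% lower in KOPN-8, and 4.85% higher and 4.6% lower in 697. Among genes at 15 CPM in a group the shares were 14.4% and 18.7% in KOPN-8, and 5.65% and 5.2% in 697. In KOPN-8, 39 of 195 KRAB members (20.0%) were higher and 9 (4.62%) lower, and 24 of 103 others (23.3%) were higher and 8 (7.77%) lower. In 697, 12 KRAB members (6.15%) were higher and 1 (0.513%) lower, and 7 others (6.80%) were higher and 4 (3.88%) lower. On chromosome 19, 29 of the 128 KRAB members (22.7%) were higher and 3 (2.34%) lower in edited KOPN-8 cells, with a median log2 fold change of 0.11. The 532 other genes of chromosome 19 at 15 CPM had 16.2% higher and 12.8% lower, with a median of 0.03. In 697 the same KRAB members had 10 higher (7.81%) and 0 lower by edgeR, and 10 higher and 0 lower by DESeq2. At an unadjusted p under 0.05 by edgeR, 30 of them were higher and 0 lower, and their median was 0.12. The 532 other genes of the chromosome had 3.38% higher and 5.075% lower in 697, with a median of -0.07. At an unadjusted p under 0.05 by edgeR, 33 of these 532 were higher and 94 lower. Members with 10 or more fingers had 24.3% higher and 4.52% lower in KOPN-8, and those with fewer had 16.5% and 7.44%. These shares were not tested against each other.

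CCGGAAG was present in the promoters of 36 of 59 members higher in edited KOPN-8 cells (61.0%), of 2 of 13 members lower (15.4%) and of 78 of 190 members not called (41.1%). The promoters of ZNF257, ZNF264 and ZNF606 printed above are among the 36. These shares are descriptions, and binding was not measured. The same shares were not taken over all genes called, so a tie of the match to direction in general cannot be told from one among members. Members that arose by duplication can have like promoters, as ZNF257 and ZNF91 do, so promoters are not independent. The match was also more frequent in KRAB members. Longer motifs of other factors were searched at first and are not reported here.

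The 2 lines were compared directly, as the KOPN-8 change minus the 697 change. For 43 members (14.4%) the change differed at an adjusted p under 0.05 (edgeR, Benjamini-Hochberg), against 19.5% of all genes. It was more positive in KOPN-8 for 23, against 7.46% of all genes, and more negative for 20, against 12.1%. Among genes at 15 CPM in a group, 9.4% were more positive, 14.2% more negative and 23.6% either. With the replicate number as a block 36 were more positive and 35 more negative, against 10.5% and 14.9% of all genes. Without KOPN-8 control replicate 2 the total was 28. The 5 members with the smallest p were ZNF257, ZNF706, ZNF286A, ZNF580 and ZNF318, with differences of 1.98, -0.79, -1.37, 1.05 and -0.83.

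Called in both lines and higher in edited cells of both were 3 members, ZNF776, ZNF160 and ZNF292. With 19 members higher in 697 and 63 in KOPN-8, some shared calls can arise without any link between the lines. Neither this count nor that of members called in opposite directions was taken over all genes, so neither is read as a trait of the members. ZNF292, a tumour suppressor mutated in chronic lymphocytic leukaemia, had 83.6, 100 and 90.3 CPM in 697 edited and 76.1, 76.6 and 78.5 CPM in 697 control libraries. In KOPN-8 it had 113, 109 and 115 CPM in edited and 93.5, 103 and 98.0 CPM in control libraries. The groups did not overlap in either line, and the log2 fold changes were 0.25 and 0.19 (adjusted p = 0.0303 and 0.0395, edgeR). Those of ZNF776 were 0.26 and 0.37, and those of ZNF160 were 0.29 and 0.24, in 697 and KOPN-8. These calls were not stable: that of ZNF776 was lost in 12 of the alternative settings in 697, that of ZNF292 in 6 in each line, and that of ZNF160 in 5 in each line, for both of these including the fit of 697 alone and, in KOPN-8, TMM scaling without chromosomes 8 and 13. Of ZNF776, 28.6% of the coding sequence is nearly identical to another gene. No member was called lower in both by edgeR, 0 were lower in both at an unadjusted p under 0.05, and 0 by DESeq2.

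ZNF580 and ZNF771 were lower in edited 697 cells and higher in edited KOPN-8 cells. ZNF580 had 17.5, 18.7 and 13.7 CPM in 697 edited and 23.2, 27.1 and 24.2 CPM in 697 control libraries. In KOPN-8 it had 24.1, 21.4 and 32.1 CPM in edited and 18.2, 17.1 and 20.3 CPM in control libraries. Both pairs of groups were apart, with log2 fold changes of -0.57 in 697 and 0.48 in KOPN-8 (adjusted p = 0.00891 and 0.00749, edgeR). Its exons overlap those of CCDC106 and ZNF581 on the same strand. ZNF771, which has exons of DCTPP1 opposite its own, averaged 10.3 CPM in 697 edited and 16.8 CPM in 697 control libraries, and 9.05 CPM in KOPN-8 edited and 5.87 CPM in KOPN-8 control libraries. Its 697 call (adjusted p = 0.0472, edgeR) was lost in 12 of the alternative settings, and its KOPN-8 call in 6. The calls of ZNF580 were lost in 2 settings in 697 and 1 in KOPN-8. In neither line were 199 of the 298 members called. Across the 298 members, which share their libraries and are not independent, the changes of the 2 lines had Pearson's r of 0.0099 and Spearman's rho of 0.0014, and 54.7% had the same sign. Over the 9596 genes at 15 CPM in a group the values were -0.0014, 0.016 and 49.7%. The 298 include 16 members under 0.5 CPM in both groups of a line, whose changes there rest on few counts.

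**Figure D5:**
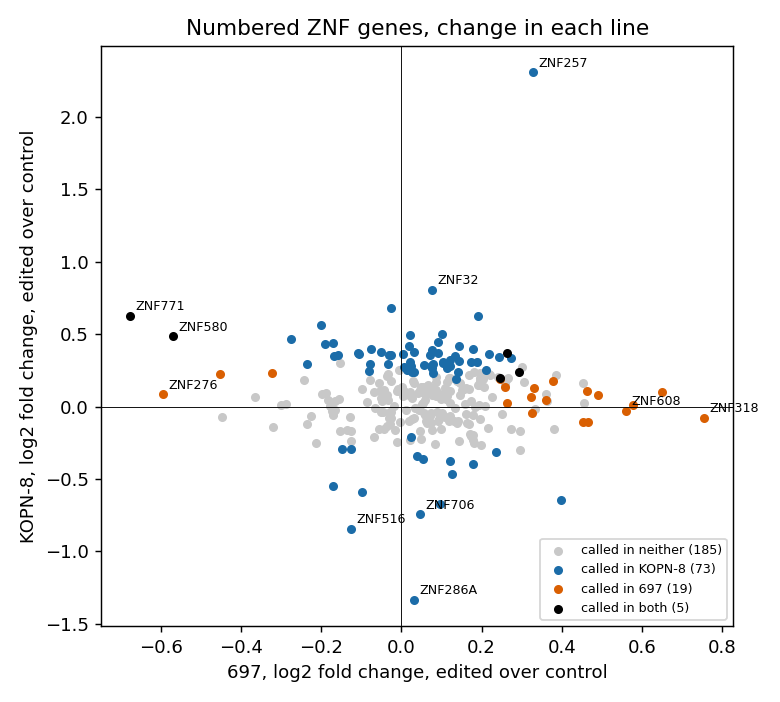
Log2 fold change, edited over control, in 697 (horizontal) and KOPN-8 (vertical) for the 282 members with a mean of 0.5 CPM or more in a group of each line, coloured by the line in which they were called. Pearson's r was 0.0099 over all 298 members, including the 16 not plotted, and ZNF257 stands apart at 2.31 in KOPN-8.

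Of 6 genes with known roles in leukaemia or B cells, 5 were members, of which ZNF217 and ZNF292 are described above. ZNF384, a fusion partner in B-cell leukaemia, had 85.3, 90.5 and 102 CPM in KOPN-8 edited and 76.3, 77.8 and 82.6 CPM in KOPN-8 control libraries, a log2 fold change of 0.23 ± 0.08 (adjusted p = 0.0344, edgeR). Its KOPN-8 call was lost in 5 of the alternative settings, among them TMM scaling without chromosomes 8 and 13. In 697 it was at 0.08 and not called. ZNF362, its paralogue and also a fusion partner, was called in neither line, at -0.17 in 697 and -0.06 in KOPN-8. ZNF521 was not called in KOPN-8 (log2 fold change 0.11, adjusted p = 0.283, edgeR). ZNF423, its paralogue, did not reach 15 CPM in any group.

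Of 8 members that act in heterochromatin, imprinting or transposon silencing, 2 were higher in edited KOPN-8 cells, against 21.1% of all members and 11.5% of all genes tested. ZNF644, which brings the H3K9 methyltransferases G9a and GLP to chromatin, had 91.6, 103 and 93.5 CPM in KOPN-8 edited and 75.01, 82.4 and 77.0 CPM in KOPN-8 control libraries. The groups did not overlap, with a log2 fold change of 0.30 ± 0.08 (adjusted p = 0.00485, edgeR). ZNF93, which silences LINE-1 elements, averaged 38.7 CPM in KOPN-8 edited and 30.1 CPM in KOPN-8 control libraries (log2 fold change 0.36, adjusted p = 0.0187, edgeR). This call was lost in 3 of the alternative settings. ZNF91, which silences SVA elements, was at 0.13 and ZNF445, which keeps imprints, at -0.03, neither called.

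Of 11 members that act with chromatin complexes or activate promoters, ZNF592, ZNF687 and ZNF335 were higher in edited KOPN-8 cells, against the same 21.1% of members and 11.5% of all genes. ZNF592 had 71.8, 70.1 and 72.1 CPM in KOPN-8 edited and 56.4, 52.2 and 54.4 CPM in KOPN-8 control libraries (log2 fold change 0.39 ± 0.07, adjusted p = 0.000154, edgeR). ZNF687 averaged 48.6 CPM in KOPN-8 edited and 37.4 CPM in KOPN-8 control libraries (log2 fold change 0.38 ± 0.09, adjusted p = 0.00324, edgeR). ZNF335, a subunit of an H3K4 methyltransferase complex mutated in microcephaly, had a log2 fold change of 0.37 ± 0.10 (adjusted p = 0.00494, edgeR). ZNF143, an activator of many housekeeping promoters, was at 0.09 in both lines and not called. ZNF281 was called in neither line alone, but its changes differed between the lines, at 0.22 in 697 and -0.15 in KOPN-8.

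Of 7 members that act on RNA, ribosomes or the spindle, ZNF638, a partner of the HUSH complex and of splicing factors, was higher in edited 697 cells. It had 210, 216 and 225 CPM in 697 edited and 181, 181 and 180 CPM in 697 control libraries, a log2 fold change of 0.26 ± 0.06 (adjusted p = 0.0058, edgeR). The rest, among them the spindle protein ZNF207 and the ribosome collision sensor ZNF598, were called in neither line.

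A list of 30 genes held KRAB co-repressors together with other heterochromatin genes, so its shares are not those of KRAB partners alone. In KOPN-8, 7 of the 30 were higher and 2 lower (23.3% and 6.67%), against 11.5% and 17.2% of all genes tested, with a median log2 fold change of 0.11. In 697 2 were called (6.67%), both higher, with a median of 0.04, against 4.85% higher and 4.6% lower of all genes tested. TRIM28, which KRAB binds, was called in neither line: it averaged 456 CPM in 697 edited and 493 CPM in 697 control libraries, and 432 CPM in KOPN-8 edited and 414 CPM in KOPN-8 control libraries. SETDB1 and the HP1 genes CBX1, CBX3 and CBX5 were also called in neither line. UHRF1, which brings DNMT1 to replicated DNA, averaged 316 CPM in KOPN-8 edited and 195 CPM in KOPN-8 control libraries (log2 fold change 0.70 ± 0.07, adjusted p = 2.03e-08, edgeR). RESF1, a SETDB1 partner in mouse, had 0.53, SUV39H2 0.33 and HDAC1 0.30 as log2 fold changes in KOPN-8, all called. ATF7IP, which stabilises SETDB1, was higher in edited 697 cells, at 142 CPM against 116 CPM in 697 control libraries, and lower in edited KOPN-8 cells, at 98.9 CPM against 118 CPM in KOPN-8 control libraries (adjusted p = 0.018 and 0.0139, edgeR). ATF7IP2, the other gene called in 697, had 25, 15 and 21 counts in 697 edited and 0 counts in all 3 of the 697 control libraries. In other zinc finger families at 15 CPM, 7 of 29 ZBTB genes were higher and 2 lower in edited KOPN-8 cells, 1 of 10 ZFP genes was higher and 1 lower, 2 of 8 ZSCAN genes were higher and 2 lower, and 1 of 5 ZKSCAN genes was higher, against 14.4% higher and 18.7% lower among all genes at that level.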

How the data were processed

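RNA-seq counts from 12 libraries, 3 in each of 4 groups taken from the sample labels, were analysed. The authors deposited raw read counts, as whole numbers, for 59611 gene symbols. Per the submitters' processing notes, the tools were Trimmomatic, STAR and DESeq2 and the build was hg19; for the counter, annotation, use of strand and versions, nothing was given in the sources used. The deposited normalized table was not used.

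The model was edgeR's robust quasi-likelihood F test (edgeR 4.0.16 in R 4.3.3), with 1 mean per group over all 12 libraries, filterByExpr on the groups and TMM scaling, with Benjamini-Hochberg adjustment over 15218 genes and a call at an adjusted p under 0.05. SE is the log2 fold change over the root of F, and CPM uses TMM-scaled library sizes. On simulated data 69% and 92% of 697 changes of 0.5 and 1 on the log2 scale were recovered, with 5.29% of calls false, and 74% and 97% of KOPN-8 changes, with 10% false. There each gene had 1 mean over all 12 libraries, 100 genes were changed at each size, and replicates were not paired. The rates may differ in the real data, where the lines differ and far more genes were called. Alternatives were DESeq2 1.42.0, other scalings, no filter, a replicate block, a fit of each line alone and leaving out each library.

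Chi-square over degrees of freedom between replicates of a group was 2.91 to 10.7, above sampling noise. Deviations of same-numbered libraries correlated at 0.158, 0.296 and 0.143 in 697, which was taken as pairing on that evidence alone, and not all over 0.1 in KOPN-8.

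Chromosomes, gene order and proteins came from GENCODE v29 (GRCh38), used without coordinates since the files use another build. Fingers were found by the C2H2 spacing of cysteines and histidines, KRAB by a profile of 36 residues built from 274 proteins and a score of at least 15 bits. Coding sequences with at least 97% identity to another gene over 75 bases (BLAST+ 2.17.0) were taken as nearly identical, and 9 members had over 20% of such sequence. Exons of another gene lay opposite 103 members and on the same strand of 79.

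The members and all lists were chosen with earlier results of these data known. Named were, per line, the 8 highest and 8 lowest called members without overlap between groups, members called in both lines, the 5 smallest p-values of the line difference, members of role lists, members on chromosome 8 and those next to the threshold. Members on in one line and off in the other, ZNF154, ZNF274, ZNF141 and gene neighbours were chosen after their values were seen.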

Additional observations from a re-analysis of the deposited data

Results flagged for a closer look

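The change between edited and control libraries differed between the lines, by edgeR's test of the difference itself at an adjusted p under 0.05, for 26 of the named members. Members were named partly for the size or p-value of such changes, so the count of 26 is not a share. Among all 298 members 43 (14.4%) were called for this difference, against 19.5% of all genes tested. The values given for the change are the KOPN-8 log2 fold change minus that of 697. It was more positive in KOPN-8 for ZNF257 at 1.98, ZNF771 at 1.30, ZNF580 at 1.05, ZNF513 at 0.77, ZNF32 at 0.73, ZNF606 at 0.71, ZNF672 at 0.68, ZNF276 at 0.68, ZNF746 at 0.55, ZNF335 at 0.48, ZNF592 at 0.47, ZNF264 at 0.43 and ZNF367 at 0.40. It was more negative in KOPN-8 for ZNF286A at -1.37, ZNF318 at -0.83, ZNF706 at -0.79, ZNF572 at -0.77, ZNF516 at -0.72, ZNF234 at -0.59, ZNF608 at -0.59, ZNF615 at -0.58, ZNF641 at -0.57, ZNF569 at -0.56, ZNF74 at -0.49, ZNF281 at -0.36 and ZNF217 at -0.36. ZNF572 and ZNF706 lie in the part of chromosome 8 where most genes were lower in edited KOPN-8 cells. ZNF286A is uncertain, because its reads may be split with ZNF286B. The calls of ZNF74, ZNF641, ZNF264 and ZNF217 were lost in 10, 9, 6 and 4 of the alternative settings. What sets the lines apart was not tested.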

How the results depend on the processing

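The number of members called in KOPN-8, 80, stayed between 72 and 100 under other scalings, DESeq2 (79), no filter and the replicate block, and ran from 55 to 85 when each library was left out. In 697 the count of 24 was 46 with the replicate block (37 higher, 9 lower), 11 when the line was fitted alone, and 12 to 24 with each library left out. For the line difference 43 became 71 with the replicate block and ran from 28 to 50 with each library left out. The block was paired on the libraries' deviations in 697. In KOPN-8 the same-numbered libraries correlated positively but more weakly (r = 0.0673, 0.0609 and 0.106). Differently numbered KOPN-8 libraries had r from -0.07 to 0.00911. Without 697 control replicate 3, 10 were higher and 6 lower in 697. With on set at 5 CPM, 1 numbered ZNF gene, ZNF391, was on in one KOPN-8 group and off in the other. The 14 members on in one line and off in the other ran from 13 to 20 over the added settings. For the named members, 3661 of 3856 values stayed on their side of the threshold, 90 of the uncalled ones with the other sign, 141 lost a call, 54 gained one and none of the called values reversed. In 697 the calls of ZNF771, ZNF776 and ZNF780B were lost in 12, 12 and 11 settings, and in KOPN-8 that of ZNF395 in 9. For the line difference the calls of ZNF74, ZNF641, ZNF264 and ZNF217 were lost in 10, 9, 6 and 4. Causes were not tested. Members near 2 CPM rest on few counts.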
